A study of Homo sapiens with 6 samples.

Results

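The 31 genes described here are read-outs of cellular stress responses in HCT-8 cells, an established human colorectal cancer line, after a hairpin against PNISR. They were taken by symbol from a list of amino acid response genes that answer to the transcription factor ATF4 and of endoplasmic reticulum (ER) stress genes. Of the 60664 genes in the count table, 31 are members, 18 in the amino acid response arm and 13 in the ER arm, and 30 of them were among the 16102 genes that passed the filter on low counts. RNA was sequenced from cells transfected with a control hairpin plasmid (shNC) or with a plasmid carrying a hairpin against PNISR (shPNISR), with 3 libraries in each group. Both groups are the same line grown in DMEM with serum. The labels name 1 hairpin plasmid against PNISR, so lowering PNISR and any other effect of that plasmid cannot be told apart. No source used here gives the time after transfection. Nor do the labels tell whether each library had its own culture, and the p-values below then reflect spread among libraries that may be technical.

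Both arms serve protein homeostasis. When amino acids run short or unfolded proteins build up in the ER, kinases phosphorylate the initiation factor eIF2, general translation slows, and ATF4 mRNA is translated more. ATF4 is thus controlled in large part after transcription, and its targets supply amino acids, tRNA charging and feedback on the pathway. The other ER stress sensors, IRE1 and ATF6, act through the transcription factors XBP1 and cleaved ATF6 on genes for chaperones and for ER-associated degradation, which removes misfolded proteins. In growing carcinoma cells both sets of genes are usually expressed, since such cells import and make amino acids and fold many secreted and membrane proteins.

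PNISR itself was lower in every shPNISR library (50.2 to 62.8 CPM, counts scaled to a common library size by TMM, in shNC and 18.5 to 27.6 in shPNISR). The epithelial markers EPCAM, CDH1, KRT8, KRT18, VIL1, CDX2 and LGALS4 were expressed, and KRT20 was below the filter (0.123 ± 0.130 CPM in shNC and 0.346 ± 0.0768 in shPNISR). Summed over the 8 epithelial markers, 7 of which were tested, the level ran from 4045 to 4490 CPM in shNC and from 4337 to 5485 in shPNISR. The 8 fibroblast markers (4 tested) summed to 16.2 to 24.8 CPM and 24.6 to 28.96 CPM, with COL1A2 and FAP at 0 in every library. The 8 leukocyte markers (3 tested) summed to 4.09 to 5.37 CPM and 4.92 to 6.70 CPM, with PTPRC at 0, and the 4 endothelial markers (1 tested) to 0.718 to 1.49 CPM and 1.41 to 1.66 CPM. Within the leukocyte sum, markers moved in opposite directions. LYZ fell from a mean of 1.21 to 0.287 CPM and passed the test described below. CD14 was at 1.68 and 2.78 CPM and did not pass. The part of these shifts in the results below was not tested. The control library shNC 2 stood apart from the other controls on the first principal component, towards shPNISR (0.787, against -35.2 and -31.2 for shNC 1 and shNC 3 and 16.9 to 24.6 for the shPNISR libraries, 44.8% of the variance), so results that rest on it are given without it as well.

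The start regions of some members carry the sequence elements by which the pathways are usually recognised, and others carry none of them. A few are shown because the 2 arms differ in the elements for ER stress. RefSeq windows from 250 bases before to 50 bases after the start (GRCh38.p14) were given for 27 members. Both strands were searched for the ATF4 and C/EBP composite element (CARE, here TGATGNAA), the ER stress response element (ERSE, CCAAT and CCACG with 9 bases between them), its shorter form ERSE-II (ATTGG and CCACG with 1 base between them) and the XBP1 element (UPRE, TGACGTGG). In the sequences below, capitals mark the matches, with the spacer of ERSE left in lower case, and the matches do not overlap one another. HSPA5 and HSP90B1 stand for the ER chaperones, HERPUD1 for a gene with elements of both kinds, CHAC1 for an ATF4 target, and TRIB3 for the gene with the clearest difference between the groups, whose window held none of the 4 motifs. The RefSeq start of TRIB3 lies inside the longer GENCODE gene given below.

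HSPA5, chr9:125241294-125241593, minus strand: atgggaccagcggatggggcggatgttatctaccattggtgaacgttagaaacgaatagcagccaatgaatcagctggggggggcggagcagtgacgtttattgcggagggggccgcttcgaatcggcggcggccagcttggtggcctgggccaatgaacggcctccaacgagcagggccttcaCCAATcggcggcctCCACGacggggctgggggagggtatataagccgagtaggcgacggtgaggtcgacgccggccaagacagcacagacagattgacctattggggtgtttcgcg
HSP90B1, chr12:103930160-103930459, plus strand: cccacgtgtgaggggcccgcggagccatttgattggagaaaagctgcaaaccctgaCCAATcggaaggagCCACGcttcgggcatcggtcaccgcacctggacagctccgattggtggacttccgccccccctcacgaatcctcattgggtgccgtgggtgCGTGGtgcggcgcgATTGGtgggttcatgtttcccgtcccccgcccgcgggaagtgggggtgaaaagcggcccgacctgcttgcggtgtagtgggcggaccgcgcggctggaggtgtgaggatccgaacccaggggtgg
HERPUD1, chr16:56931892-56932191, plus strand: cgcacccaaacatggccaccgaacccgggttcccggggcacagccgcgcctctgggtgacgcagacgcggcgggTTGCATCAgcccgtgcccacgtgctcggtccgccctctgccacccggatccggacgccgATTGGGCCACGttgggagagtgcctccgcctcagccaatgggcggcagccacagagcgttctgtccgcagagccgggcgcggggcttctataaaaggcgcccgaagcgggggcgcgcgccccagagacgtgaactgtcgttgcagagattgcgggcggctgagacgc
CHAC1, chr15:40953221-40953520, plus strand: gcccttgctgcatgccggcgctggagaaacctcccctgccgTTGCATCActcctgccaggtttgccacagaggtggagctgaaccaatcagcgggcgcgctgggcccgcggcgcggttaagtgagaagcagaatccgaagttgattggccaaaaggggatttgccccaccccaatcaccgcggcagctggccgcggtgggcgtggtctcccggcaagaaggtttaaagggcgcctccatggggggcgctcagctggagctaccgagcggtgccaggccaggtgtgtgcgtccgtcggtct
TRIB3, chr20:381045-381344, plus strand: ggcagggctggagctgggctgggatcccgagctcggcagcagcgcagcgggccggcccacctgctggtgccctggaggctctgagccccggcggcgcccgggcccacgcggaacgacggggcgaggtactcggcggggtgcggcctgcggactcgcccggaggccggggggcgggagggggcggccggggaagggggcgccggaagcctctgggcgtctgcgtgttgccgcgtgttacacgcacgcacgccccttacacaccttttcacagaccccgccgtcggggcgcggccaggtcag

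ERSE was found in 5 of the 13 ER arm windows (XBP1, HSPA5, HSP90B1, CALR and CRELD2), in 0 of the 14 windows of the amino acid response arm, and in 0.0806% of 27305 windows of the same length over all genes. The match began 66 bases before the start in HSPA5, 52 in XBP1 and 80 in CRELD2, and 194 and 89 bases before it in HSP90B1. ERSE-II was found in 2 ER arm windows, those of SDF2L1 and HERPUD1, and in 0.0549% of all windows. CARE was found in 3 of 14 windows of the amino acid response arm (CHAC1, ASNS and SLC3A2), in 1 of the 13 ER arm windows (HERPUD1), and in 3.67% of all windows. UPRE was in 0 of the 27 member windows and in 0.795% of all windows. A match is a description of the letters only.

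With the PNISR hairpin 1 member rose, the feedback regulator TRIB3, and none fell. That is 3.33% of the 30 tested members, and 3.14% of all tested genes passed the same test (two-sided quasi-likelihood test of edgeR, p adjusted by Benjamini-Hochberg over all tested genes, at or under 0.05), 2.3% of them higher and 0.832% lower. The share of members called was thus near the background. At an unadjusted p under 0.05 there were 5 higher and 1 lower member, 6 of the 30, beside 17.8% of all tested genes. The groups did not overlap, with shPNISR higher, in 6 of the 30 members (background 11.5%) and, with shPNISR lower, in 1 (background 9.58%). RNA from whole cultures was measured, so a change in the share of cells that express a gene and a change per cell cannot be told apart.

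In the amino acid response arm 14 of 17 tested members had a fitted log2 fold change above 0, with a median of 0.21 and a range from -0.50 to 0.90. In the ER arm 10 of 13 were above 0, with a median of 0.05 and a range from -0.29 to 0.21. That count rested in part on shNC 2. Against the average of shNC 1 and shNC 3, the shPNISR mean of log2 CPM was above 0 in 7 of 13 ER arm members. It was above 0 in 14 of 17 members of the amino acid response arm. The ER arm's median in shNC 2 was -0.14 on that scale. Over all tested genes 47.9% were above 0 and the median was -0.01. Of the 5 members higher at an unadjusted p under 0.05, all 5 (TRIB3, SHMT2, VLDLR, CEBPB and SLC7A11) belong to the amino acid response arm. At the same threshold 1607 of all 16102 tested genes were higher. The difference between the arms was not tested, and their medians lay closer in some alternatives: 0.11 and 0.06 with counts corrected for transcript GC content and exon length, and 0.11 and 0.07 without shPNISR 1. The ER arm's median ran from 0.0061 without shNC 2 to 0.12 without shNC 3.

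**Figure D1:**
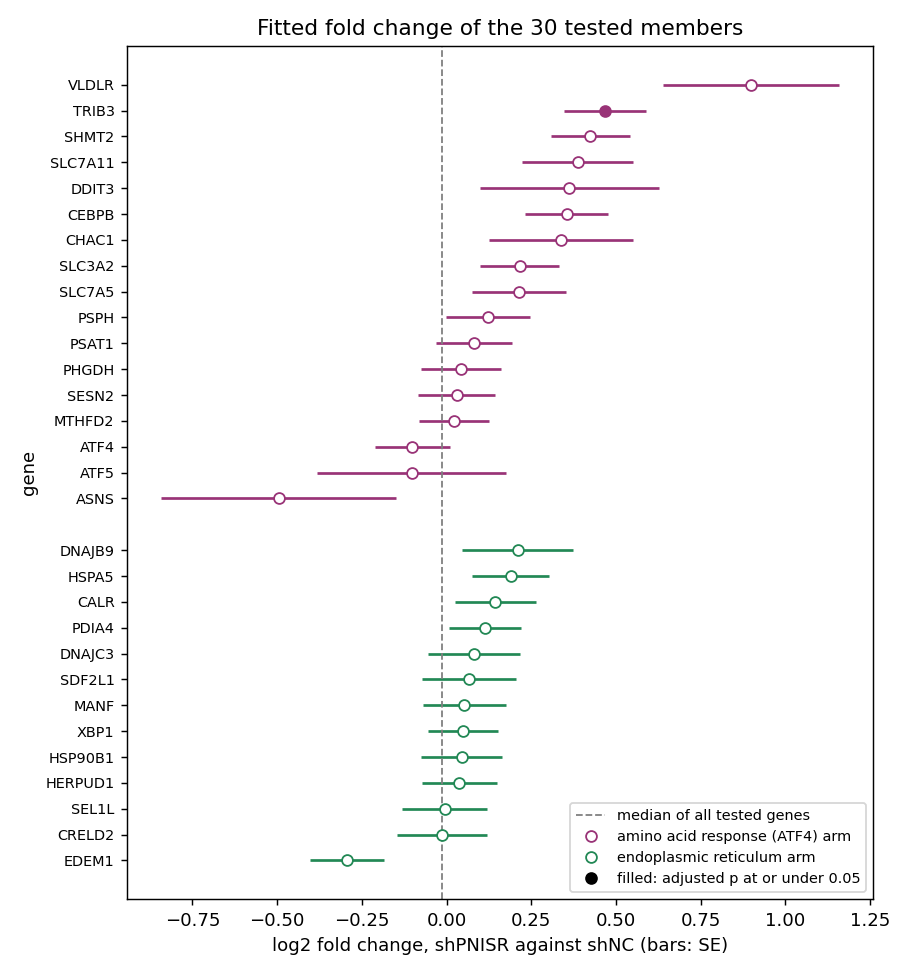
Fitted log2 fold change of shPNISR against shNC for the 30 tested members, with bars of 1 standard error, by arm; the dashed line is the median of all tested genes. TRIB3 alone is filled (adjusted p at or under 0.05), and the ER arm spans -0.29 to 0.21 while the amino acid response arm spans -0.50 to 0.90.

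Among the transcription factors of the amino acid response arm, none passed the test. ATF4, the regulator after which the arm is named, was at 625, 675 and 709 CPM in shNC 1 to 3 and at 638, 650 and 585 CPM in shPNISR 1 to 3. The groups overlapped, and the log2 fold change was -0.10 ± 0.11 (SE, adjusted p = 0.678). ATF4 protein and its translation were not measured here. CEBPB, a bZIP factor that pairs with ATF4 at composite elements, was at 42.9, 51.6 and 50.8 CPM in shNC and at 65.7, 63.9 and 56.1 CPM in shPNISR. All shPNISR libraries were above all shNC libraries, but the difference did not pass (0.35 ± 0.12, adjusted p = 0.126), and it was 0.10 once counts were corrected for transcript GC content and exon length. Its transcript is 66.2% G and C. DDIT3, which encodes the pro-apoptotic factor CHOP, was low, at 3.15, 6.28 and 5.13 CPM in shNC and 4.38, 6.51 and 7.73 CPM in shPNISR, with overlapping groups (0.36 ± 0.26, adjusted p = 0.501). Of its exon bases 27.2% lie opposite MARS, which was at a mean of 324 CPM, and no source used here tells whether the counting used strand.

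ATF5, a related bZIP factor that is also controlled by translation, was at 28.7, 12.1 and 22.8 CPM in shNC and 24.0, 19.4 and 15.9 CPM in shPNISR. Its lowest value was in shNC 2, and its sign changed when shNC 1 or shPNISR 3 was left out. Of the exon bases of ATF5 21.2% lie opposite NUP62, which was at a mean of 112 CPM, so the same limit on strand applies. NUPR1, a small stress-induced chromatin protein, had 3 to 6 counts per shNC library and 6 to 10 per shPNISR library. It did not pass the filter and was not tested (0.288 ± 0.0949 CPM in shNC and 0.506 ± 0.121 CPM in shPNISR).

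The feedback and stress regulators included the only member that passed, TRIB3, and the member with the largest fitted difference, VLDLR. TRIB3, a pseudokinase induced by ATF4 and CHOP that restrains both ATF4 activity and AKT, lies on the plus strand of chromosome 20 at 362835 to 397559 (GRCh38). It had 658 to 860 counts per shNC library and 936 to 1212 per shPNISR library. At 47.5, 49.8 and 43.8 CPM in shNC and 71.8, 66.0 and 57.4 CPM in shPNISR, the groups did not overlap. The means were 47.05 ± 3.04 and 65.1 ± 7.23 CPM (SD, n = 3), a 1.38-fold difference (log2 fold change 0.47 ± 0.12, adjusted p = 0.0425 by edgeR's quasi-likelihood test). The call rested close to the threshold. It ended in 10 of 17 alternatives, among them leaving out any 1 library but shNC 2 (adjusted p from 0.0515 to 0.246, edgeR) and the GC and length correction (0.29, adjusted p = 0.126). The transcript of TRIB3 is 60.9% G and C, and the median over all tested genes is 49.0%.

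VLDLR, a lipoprotein receptor whose gene responds to ATF4 and also to hypoxia-inducible factor, had the largest fitted difference of the members. It was at 9.11, 18.6 and 7.99 CPM in shNC and 21.0, 22.0 and 23.6 CPM in shPNISR. The groups did not overlap, but shNC 2 was near the shPNISR libraries and far from the other controls, and the gene did not pass (0.90 ± 0.26, adjusted p = 0.0915). It passed in 7 of 17 alternatives, with all 6 libraries by DESeq2 (0.89, adjusted p = 0.0102) and by limma voom (1.00, adjusted p = 0.0246) among them. The log2 fold change was 1.37 without shNC 2 (adjusted p = 1.08e-05) and 0.68 without shNC 3 (adjusted p = 0.0412), and both passed. Exons of VLDLR-AS1 lie opposite 7.9% of its exon bases. That antisense gene had 4, 1 and 1 counts in shNC and 14, 27 and 10 in shPNISR, beside 120 to 288 and 354 to 385 counts of VLDLR.

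CHAC1, which degrades glutathione and is a sensitive target of ATF4, was at 7.12, 13.5 and 8.06 CPM in shNC and 12.8, 12.4 and 10.98 CPM in shPNISR. Here shNC 2 was the highest of all 6 libraries. With all libraries CHAC1 did not pass (0.34 ± 0.21, adjusted p = 0.429), and without shNC 2 it did (0.67, adjusted p = 0.016), though not with the GC and length correction as well (0.43, adjusted p = 0.0571). SESN2, a leucine sensor that holds back mTORC1, differed little, at 91.2, 92.4 and 92.0 CPM in shNC and 106, 91.0 and 84.3 CPM in shPNISR (0.03 ± 0.11, adjusted p = 0.92).

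**Figure D2:**
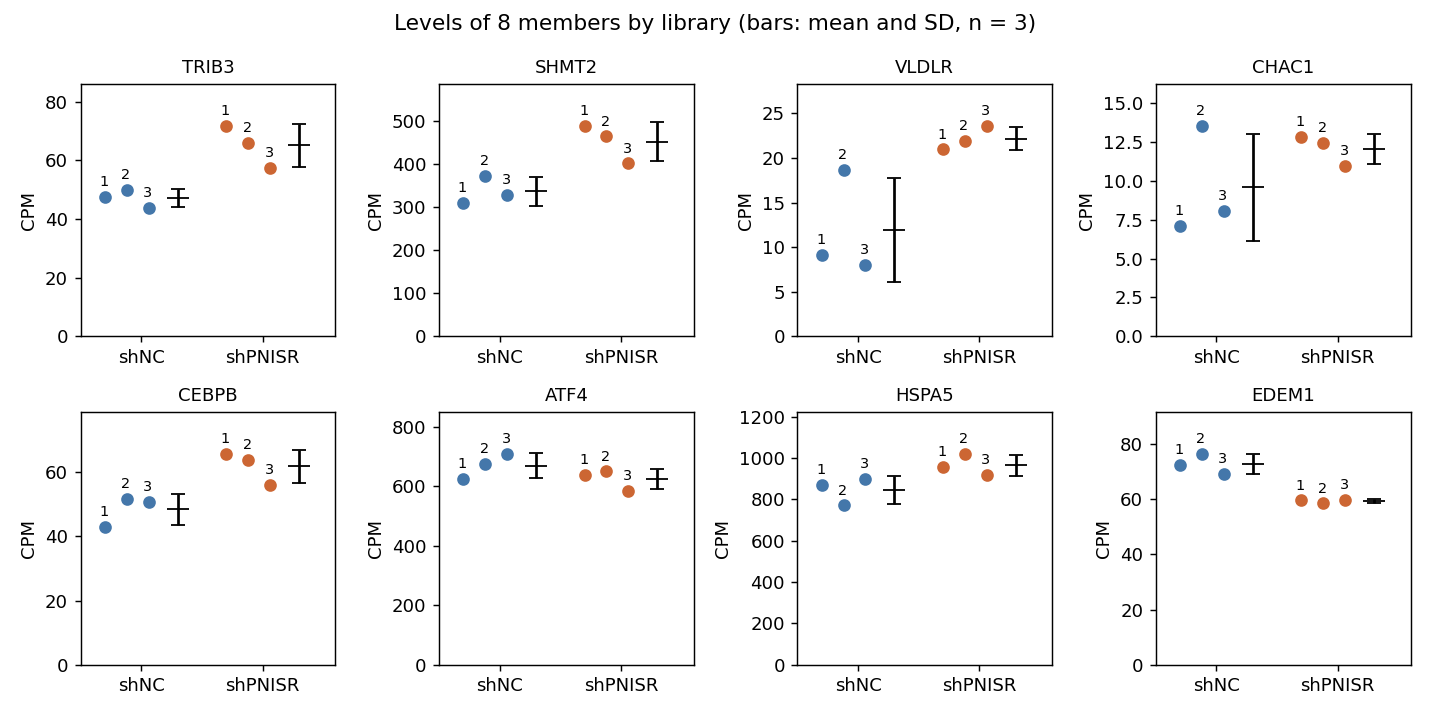
Level in CPM (y axes from 0) of 8 members in each library, with replicate numbers above the points and the mean and SD of 3 libraries beside them. TRIB3, SHMT2, VLDLR, CEBPB and HSPA5 are higher in all 3 shPNISR libraries and EDEM1 is lower, while shNC 2 sits at 18.6 CPM for VLDLR and 13.5 CPM for CHAC1, apart from the other controls.

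Of the 6 genes for serine, one-carbon and asparagine synthesis, none passed the test. SHMT2, the mitochondrial enzyme that splits serine into glycine and a one-carbon unit, came closest. It was at 309.7, 374 and 328 CPM in shNC and 489.9, 465 and 402 CPM in shPNISR, so that the groups did not overlap. The log2 fold change was 0.42 ± 0.12 (1.34-fold, adjusted p = 0.0551), and it passed in 6 of 17 alternatives, with adjusted p from 0.011 to 0.307 over all of them. The enzymes on either side of it did not follow. PHGDH, PSAT1 and PSPH, which make serine from a glycolytic intermediate, had log2 fold changes of 0.04 ± 0.12, 0.08 ± 0.11 and 0.12 ± 0.12. MTHFD2, which acts after SHMT2 in the mitochondrial folate pathway, was at 268, 275 and 273 CPM in shNC and 271, 291 and 266 CPM in shPNISR (0.02 ± 0.10, adjusted p = 0.933). All 4 had overlapping groups. Their means in shNC were 409.5 CPM for PHGDH, 257 CPM for PSAT1, 65.8 CPM for PSPH and 272 CPM for MTHFD2.

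ASNS, asparagine synthetase and a textbook target of ATF4, had only 18 to 29 counts per shNC library and 12 to 21 per shPNISR library. Its fitted value was the lowest of the members but with a wide error (-0.50 ± 0.35, adjusted p = 0.479). In GENCODE 29, 44.6% of the exon bases of ASNS are shared with AC079781.5, a gene on the same strand with 1 to 5 counts per library. Reads that fall in both genes may have been dropped or split by the counting, so the level of ASNS is uncertain and its direction is not read here.

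The 3 amino acid transporters had fitted values above 0 and none passed; SLC7A5 turned to -0.10 with the GC and length correction and shNC 2 left out. SLC7A11, the cystine importer, was at 36.3, 22.3 and 26.6 CPM in shNC and 41.3, 32.1 and 38.1 CPM in shPNISR, with overlapping groups (0.39 ± 0.16, unadjusted p = 0.0307, adjusted p = 0.224, edgeR). SLC7A5, the large neutral amino acid transporter, was at 404, 280.3 and 343 CPM in shNC and 466, 369 and 357 CPM in shPNISR (0.21 ± 0.14). SLC3A2, the heavy chain that both of them need at the cell surface, was at 219, 194 and 236 CPM in shNC and 273, 261 and 221 CPM in shPNISR (0.22 ± 0.12). All 3 had their lowest value in shNC 2. Set against shNC 1 and shNC 3 averaged, their median was -0.41 in shNC 2 and 0.14 in shPNISR (log2 CPM).

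In the ER arm the transcription factor XBP1 was level, at 158, 156 and 168 CPM in shNC and 169.9, 171 and 158 CPM in shPNISR (0.05 ± 0.10, adjusted p = 0.849). Gene counts do not show whether its mRNA was spliced by IRE1, the step that makes the active factor. None of the 9 chaperones and foldases passed, and 8 had a fitted value above 0, of which 6 (HSP90B1, DNAJC3, SDF2L1, PDIA4, CALR and MANF) changed sign in 1 or more alternatives. Against the average of shNC 1 and shNC 3, 5 of the 9 were higher in shPNISR and 0 in shNC 2. HSPA5, which encodes BiP, the main ER chaperone and the usual marker of the unfolded protein response, was at 868, 771 and 900.2 CPM in shNC and 958, 1019 and 918 CPM in shPNISR. The groups did not overlap, but the difference was small (1.14-fold, 0.19 ± 0.11, adjusted p = 0.407). PDIA4, a protein disulfide isomerase, was the other chaperone gene whose groups did not overlap, at 438, 399.9 and 436 CPM in shNC and 457, 469 and 454 CPM in shPNISR (0.11 ± 0.11).

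CALR, a lectin chaperone, had the highest level per kilobase of exon of all members, 547 CPM per kb, ahead of ATF4 at 257 and HSPA5 at 232. The ranges over libraries of ATF4 and HSPA5 overlapped, and that of CALR did not overlap theirs. The mean of CALR was 1412 ± 86.5 CPM in the control libraries and 1560 ± 144 CPM with the hairpin (0.14 ± 0.12). HSP90B1, the ER paralog of HSP90, followed at 139.8 CPM per kb, with a range over libraries that overlapped that of PDIA4 (135 CPM per kb), and had a log2 fold change of 0.04 ± 0.12. The smaller factors DNAJC3 and DNAJB9, which are co-chaperones of BiP, and SDF2L1, MANF and CRELD2, ER-resident or secreted stress proteins, ranged from -0.01 for CRELD2 to 0.21 for DNAJB9. Their groups overlapped in each case.

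Of the 3 genes for ER-associated degradation, none passed. EDEM1, which directs misfolded glycoproteins to degradation, was the only member whose shPNISR libraries all lay below the shNC libraries. It was at 72.6, 76.5 and 69.3 CPM in shNC and 59.6, 58.5 and 59.9 CPM in shPNISR (-0.29 ± 0.11, unadjusted p = 0.0153, adjusted p = 0.162, edgeR), and its sign was the same in all 17 alternatives. HERPUD1, which helps assemble the degradation complex, was at 68.1 ± 2.39 and 69.9 ± 4.52 CPM, and SEL1L, the adaptor of the ubiquitin ligase HRD1, at 51.5 ± 4.22 and 51.3 ± 5.80 CPM, with a sign that changed among the alternatives. The 7 ER arm genes whose windows held ERSE or ERSE-II had log2 fold changes from -0.01 to 0.19.

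**Figure D3:**
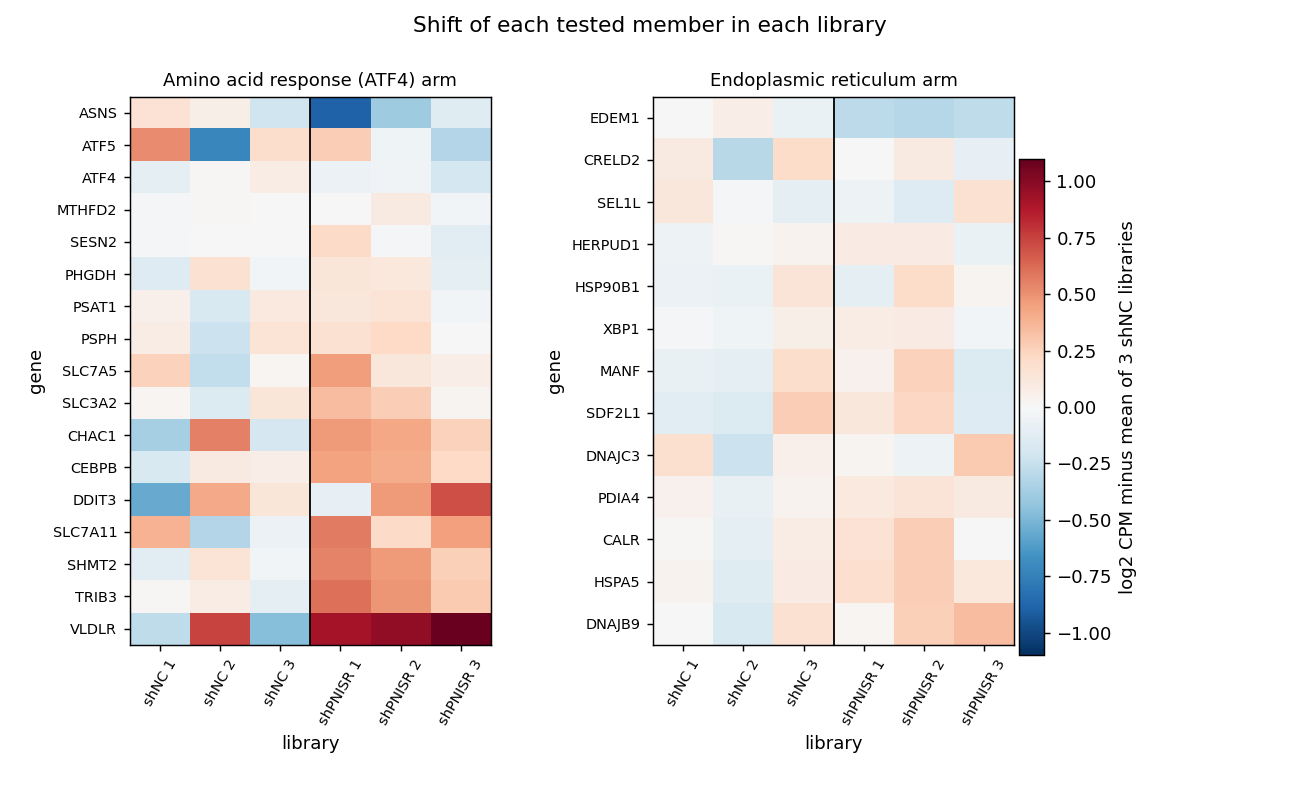
Log2 CPM of each tested member in each library minus the mean of the 3 shNC libraries, as colour, with genes ordered by fitted fold change within each arm. VLDLR, TRIB3 and SHMT2 are raised in all 3 shPNISR libraries and EDEM1 is lowered in all 3, while shNC 2 is raised most for VLDLR, CHAC1 and DDIT3 and lowered most for ATF5 (-0.71).

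Of 77 tested genes of the same pathways outside the 31, 1 rose and 2 fell, beside 3.14% of all tested genes called. Of 19 stress sensors and eIF2 control genes, 1 fell and none rose (5.26%). It was EIF2B5, the catalytic subunit of the eIF2 exchange factor, at 76.1, 73.7 and 83.3 CPM in shNC and 64.4, 56.4 and 49.7 CPM in shPNISR (-0.45 ± 0.12, adjusted p = 0.0494, a call that ended in 11 of 17 alternatives). The kinases EIF2AK1 to EIF2AK4 had log2 fold changes of -0.05, -0.18, -0.13 and -0.01, and the sensors ERN1 (IRE1) and ATF6 of 0.04 and 0.02, none past the test. Of 23 other ATF4 and CHOP targets, 1 rose and 1 fell (8.7%), and the median was 0.16. At an unadjusted p under 0.05 (edgeR), 5 were higher and 3 lower (34.8%, beside 17.8% of all tested genes). The groups did not overlap, with shPNISR higher, in 6 (background 11.5%) and, with shPNISR lower, in 3 (background 9.58%). Among those 3 were CTH (-0.32) and ALDH18A1 (-0.23). ALDH1L2 did not pass (-0.68 ± 0.20, adjusted p = 0.0871, edgeR), but did without shNC 3 (-0.87, adjusted p = 0.0004). SLC1A4, a neutral amino acid transporter, rose from 23.1 ± 3.00 to 33.6 ± 4.14 CPM (0.54 ± 0.14, adjusted p = 0.0474, ended in 9 of 17 alternatives). CBS, which makes cystathionine from homocysteine, fell from 31.8 ± 4.60 to 19.7 ± 3.37 CPM (-0.69 ± 0.15, adjusted p = 0.0191, ended in 3). CBS has a near-identical copy in GRCh38, so its counts are uncertain.

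None of 12 aminoacyl-tRNA synthetase genes passed (median 0.03). The most abundant, YARS1 and IARS1, were at 452 ± 29.3 and 444 ± 22.6 CPM in shNC and 457 ± 43.3 and 409 ± 22.6 CPM in shPNISR. None of 23 other ER folding and degradation genes passed either (median 0.02), among them P4HB at 943 ± 57.1 and 1077 ± 65.8 CPM and CANX at 939 ± 80.5 and 898 ± 39.1 CPM. 

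How many ATF4 targets passed depended on the library shNC 2, as did the count over all tested genes. Without it 5 of the 30 tested members rose, TRIB3, SHMT2, VLDLR, CHAC1 and CEBPB, all in the amino acid response arm, and none fell. In that fit 1284 of all 16500 tested genes were higher and 746 lower. Of the 77 other pathway genes 6 then rose, a share near that of all tested genes. All 6 came from the list of 23 other ATF4 and CHOP targets, and within that list the share was above that of all tested genes. They were SLC1A4, and PCK2, ADM2, GDF15, ATF3 and DDIT4, 5 genes named after their values were seen. In the same fit 2 other pathway genes fell, CBS (-0.64, adjusted p = 0.0107) and EIF2B5 (-0.49, adjusted p = 0.0128). DDIT4, an mTORC1 inhibitor that answers to ATF4 and to hypoxia, was at 66.5, 400.2 and 71.9 CPM in shNC and 267, 298 and 281 CPM in shPNISR. ATF3, a stress-induced bZIP factor, was at 23.4, 106 and 26.2 CPM in shNC and 53.8, 64.6 and 70.5 CPM in shPNISR. For both genes shNC 2 was the highest of all 6 libraries. GDF15, a stress cytokine, was at 73.6, 151 and 89.7 CPM in shNC and 179, 195 and 163 CPM in shPNISR. With all 6 libraries GDF15 did not pass by edgeR (0.78 ± 0.25, adjusted p = 0.159) but did by limma voom (0.84, adjusted p = 0.0224). ADM2 passed with all 6 libraries by DESeq2 (0.64, adjusted p = 0.0454). DDIT4, ATF3 and PCK2 passed only in fits that left out shNC 2.

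In the whole table, leaving out shNC 2 raised the count of calls from 371 higher and 134 lower genes to 1284 and 746 of 16500, so the counts of called members and of all called genes both rose. Set against shNC 1 and shNC 3 averaged, the median of the feedback and stress regulators was 0.48 in shNC 2 and 0.58 in shPNISR, and that of the chaperones and foldases -0.20 and 0.01. The median log2 fold change of the whole amino acid response arm was 0.21 against all 3 controls, 0.13 with shNC 2 left out and 0.11 with all libraries and the GC and length correction. Its tested members had a median GC content of 56.7%, those of the ER arm 46.0%, and all tested genes 49.0%. The part of GC content in the arm's shift was not tested beyond that correction.

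**Figure D4:**
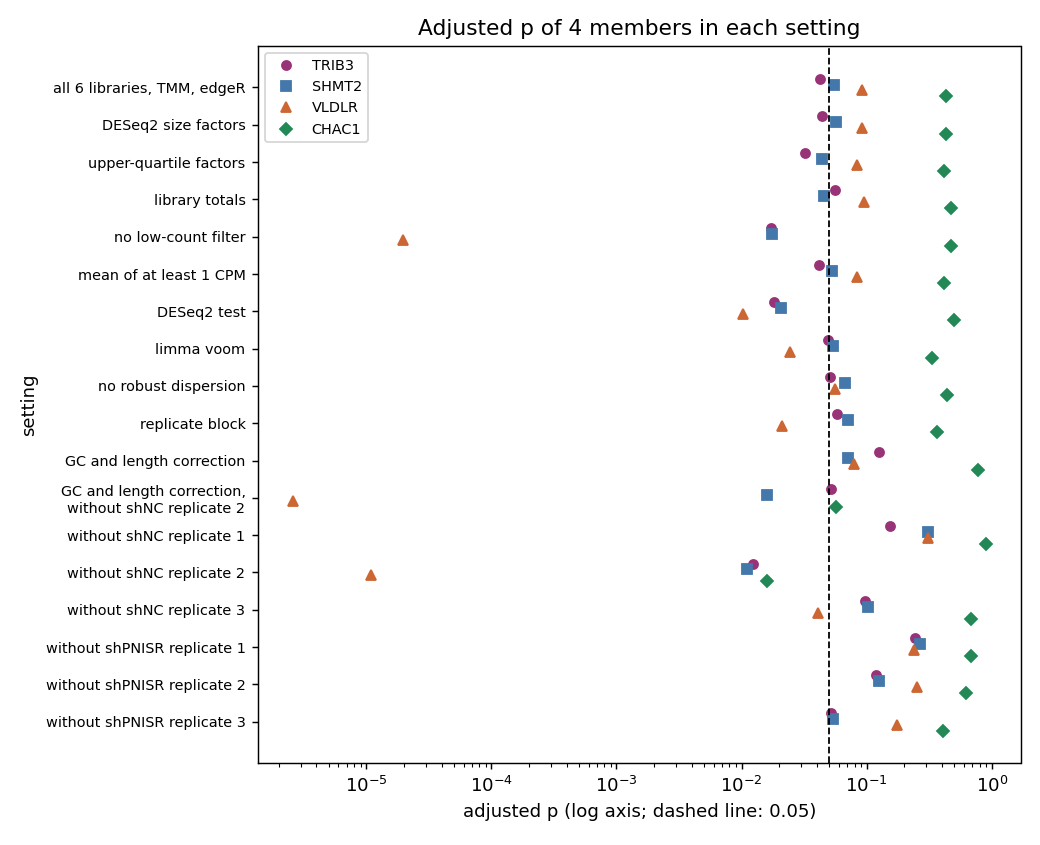
Adjusted p (log axis) of TRIB3, SHMT2, VLDLR and CHAC1 with all 6 libraries (top row) and in 17 alternatives; the dashed line is 0.05. With all libraries TRIB3 lies just left of the line and SHMT2 just right of it, and of the 18 settings shown all 4 genes lie left of it only without shNC replicate 2 and with no GC correction.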

How the data were processed

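For 6 HCT-8 libraries the authors deposited raw read counts per Ensembl gene, with no normalization. Per the submitters' processing notes, HISAT2 2.0.4 and GRCh38 were used. No source used here names the counter, its annotation or its use of strand. Totals ran from 15049485 to 17977803 counts. Symbols came from a table of gene identifiers (60463 of 60664 matched), exon lengths, GC content and overlaps from GENCODE 29, and promoter windows from RefSeq.

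Low genes were removed by filterByExpr (at least 10 counts, total of at least 15), libraries were scaled by TMM and shPNISR was tested against shNC in R 4.3.3 by edgeR 4.0.16 (robust quasi-likelihood test, two-sided, Benjamini-Hochberg over all 16102 tested genes, threshold 0.05). Standard errors came from the fold change and the F statistic. Shifts are of log2 CPM with a prior count of 2. Every member is accounted for; from each other pathway list the genes that passed (up to 4), or the 2 most abundant, are named with their level, and others were named after their values were seen. The members and lists were chosen with earlier results of these data known. Alternatives were DESeq2 1.42.0, limma 3.58.1 (voom), 3 other scalings, 2 other filters, a fit without robust dispersion, a block for replicate number, a loess correction (span 0.4) for GC content and length, and leaving out each library. On counts simulated for this comparison (15890 genes), the test recovered 91 of 100 genes simulated at 2-fold and 59 of 100 at 1.5-fold, and called 10 unchanged genes. The genes to change were drawn only from the more abundant ones, and no simulated library was set apart as shNC 2 was. A check for a library deposited more than once found none (chi-square per gene between replicates from 8.99 to 20.6); it does not show that cultures were separate. Figures were drawn with matplotlib 3.10.9.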

Additional observations from a re-analysis of the deposited data

How the results depend on the processing

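The direction and side of the threshold held in 556 of 646 pairs of a named gene and an alternative, a call was lost in 33 and gained in 16, and the sign turned in 41. Over all genes, the count of lower genes was 71 with library totals and 229 by DESeq2. With no low-count filter 642 genes were higher and 354 lower. With the GC and length correction and shNC 2 left out 1272 were higher and 1068 lower. Leaving out 1 library gave 133 to 1284 higher and 30 to 746 lower genes, the highest of both without shNC 2.

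Among the members, 2 were higher with upper-quartile factors and with limma voom, 3 by DESeq2 and with no filter, and 0 without robust dispersion or with the GC and length correction. Over all 16102 tested genes, 401 were higher with upper-quartile factors, 389 with limma voom and 477 by DESeq2. With no filter it was 642 of 29618. Of 16102 again, 341 were higher without robust dispersion and 320 with the GC and length correction. With that correction and shNC 2 left out 2 were higher (VLDLR and SHMT2) and 2 lower (ATF5 and SDF2L1). Leaving out 1 library gave 0 to 5 higher members. The amino acid response arm's median was 0.11 with the GC and length correction, 0.10 with shNC 2 left out as well, and 0.11 to 0.21 over the single libraries left out. Among the other pathway genes, 1 was lower with upper-quartile factors, voom and no robust dispersion. Library totals gave 0 higher and 0 lower, no filter 3 and 4, and a mean of at least 1 CPM 0 and 1. DESeq2 gave 2 higher, and the GC correction without shNC 2 gave 7. Leaving out 1 library gave 0 to 6 higher and 0 to 3 lower. The cause of these shifts was not tested.

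Same-numbered libraries did not deviate together (correlations of 0.119, -0.0814 and -0.15 between shNC and shPNISR for numbers 1 to 3), so the labels' numbers were not taken as pairs. Between unlike numbers the correlations ran from -0.226 (shNC 1 with shPNISR 2) to 0.307 (shNC 3 with shPNISR 2). The labels name no batch, and a deviation shared across the groups was not tested. With the replicate block 390 genes were higher and 118 lower, 1 member was higher (VLDLR, 0.98, in place of TRIB3 at 0.46, adjusted p = 0.0581), and 2 other pathway genes were higher and 1 lower.

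With the GC and length correction the sign turned for SESN2 (-0.13), SDF2L1 (-0.20), MANF (-0.016), SEL1L (0.17), YARS1 (-0.031) and CANX (0.058). With shNC 2 left out as well it turned for SESN2 (-0.15), PSPH (-0.026), SLC7A5 (-0.10), SDF2L1 (-0.30), PDIA4 (-0.015), CALR (-0.0098), MANF (-0.075), SEL1L (0.18), YARS1 (-0.021) and CANX (0.048). With upper-quartile factors it turned for CRELD2 (0.011) and SEL1L (0.018). With 1 library left out it turned, giving these ranges, for ATF5 (-0.39 to 0.18), SESN2 (-0.060 to 0.10), PSAT1 (-0.0011 to 0.14), PHGDH (-0.027 to 0.13), MTHFD2 (-0.021 to 0.048) and HSP90B1 (-0.043 to 0.12), and further for DNAJC3 (-0.031 to 0.17), SDF2L1 (-0.020 to 0.21), CRELD2 (-0.15 to 0.087), MANF (-0.060 to 0.15), SEL1L (-0.10 to 0.059), YARS1 (-0.035 to 0.089) and CANX (-0.11 to 0.0074).

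With 3 libraries a group and 15049485 to 17977803 counts each, 59 of 100 genes simulated at 1.5-fold were recovered, all drawn from the more abundant genes. That recovery does not cover genes as low as NUPR1 and ASNS, which had too few counts for a direction.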
